A study of Mus musculus with 8 samples.

Results

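CD4+ CD25+ T cells labelled as Id2-deficient and their wild-type counterparts, both sorted from visceral adipose tissue, were compared across all genes. The comparison used 4 of the 8 libraries of the series: WT adipose 2, WT adipose 3, KO adipose 2 and KO adipose 3. All mice were C57BL/6, the WT mice carried no listed allele, and the KO mice were labelled Id2 CKO. The remaining 4 libraries came from cells of the same gate in the spleens of both genotypes, and they entered the statistical model and the test of whether an adipose difference differed from the splenic one. At least 500 cells were sorted for a library. The sources used here give neither the age of the mice nor the driver of the deletion or the part of Id2 that was removed. They also leave unsaid whether replicate libraries stem from different animals, and p-values then measure only how libraries of a group vary, which may be technical.

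Levels are TPM, a share of all transcripts that is corrected for transcript length and sums to 1000000 in each library. Of 45232 gene names, 13376 reached 1 TPM in at least 2 of the 8 libraries and were tested with limma on log2(TPM + 1), with Benjamini-Hochberg adjustment over all of them and a threshold of 0.05. A fold change below is the difference KO minus WT on that log2 scale, where changes of genes near 0 look smaller than they are, and SE is the standard error of that difference. Because many of the genes that differed belong to stromal cells, the 6496 genes at 10 TPM or more in both WT adipose libraries are described separately below. The member of that set nearest to the limit was Pdpk1, with 10.0004 TPM in WT adipose 2, and the nearest gene outside it was Adora2a, with 9.99999 TPM in WT adipose 3. Choosing genes by their WT level alone favours lower values in KO, so directions within that set are also given for genes chosen on the mean of all 4 adipose libraries.

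Id2 is a small helix-loop-helix protein without a DNA-binding region. It pairs with E proteins (Tcf3, Tcf4 and Tcf12) and keeps them from binding E-box motifs in DNA, as does its relative Id3. Regulatory T cells (Tregs), which restrain immune responses and carry CD4, CD25 and the factor Foxp3, form a specialised population in visceral fat that is known for Pparg, Gata3, Klrg1 and Il1rl1, the receptor for interleukin-33. Fat also holds fibroblasts, a mesothelial lining, vessels, macrophages and adipocytes.

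The labelled cells were checked first by their defining genes. Cd3e, a T cell receptor subunit, had 172 and 847 TPM in WT adipose 2 and 3 and 70.6 and 393 TPM in the KO pair. Cd4 had 206, 105, 104 and 58.4 TPM in the same order. Every adipose library thus held T cell transcripts, at levels that overlapped between genotypes for Cd3e and that did not for Cd4 (fold change -0.90, SE 0.449, limma adjusted p = 0.747). Foxp3 stood at 126 and 93.5 TPM in WT but at 7.40 and 98.4 TPM in KO adipose libraries, so KO adipose 2 was low and KO adipose 3 lay within the WT range. The spleen library of the same number and genotype was low too: Foxp3 had 8.27 TPM in KO spleen 2 against 226 TPM in KO spleen 3, and Cd3e had 67.3 TPM against 833 TPM. Both KO libraries of experiment 2 were thus low in Foxp3. Cd3e was also lower in the WT library of experiment 2 in each tissue, with 266 and 688 TPM in WT spleen 2 and 3. Its KO minus WT difference in adipose tissue was -1.27 in experiment 2 and -1.10 in experiment 3. The defining T cell genes Cd3d and Cd3g were instead higher in KO adipose 2 (1380 and 3008 TPM) than in either WT adipose library. In KO adipose 3 (460 and 1028 TPM) they were lower. Il2ra, which encodes CD25, had 68.7 and 175 TPM in WT against 33.8 and 76.7 TPM in KO, with overlap. Of the other defining Treg genes, Ikzf2 had 37.8 and 34.8 TPM in WT and 43.2 and 36.2 TPM in KO. Ctla4 had 393 and 110 TPM in WT and 267 and 119 TPM in KO. In KO adipose 2, Ikzf2 was thus above both WT values and Ctla4 lay between them, unlike Foxp3. The KO libraries correlated less well with each other (r = 0.812 across tested genes, which are not independent replicates) than the WT libraries (r = 0.902), and they listed 13184 and 20684 genes above 0 against 14717 and 15715 in WT.

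The targeted gene was lower in both KO libraries but did not pass the test. Id2 had 2249 TPM in WT adipose 2, 3679 TPM in WT adipose 3, 1499 TPM and 1298 TPM in the KO pair. The genotypes did not overlap, and the fold change of -1.04 (SE 0.572) had a limma adjusted p of 0.751. Leaving out WT adipose 3 moved it to -0.69, and leaving out WT adipose 2 to -1.40. With 1 value per gene, transcripts with and without the deleted part cannot be told apart. The difference in KO minus WT between adipose tissue and spleen was 0.11 for Id2 (limma adjusted p = 1).

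Genes of the mesothelium, of the extracellular matrix and of the complement system were higher in the KO adipose libraries, and those that passed the test were near 0 in WT. Of the 13376 genes tested, 38 passed (0.284%): 37 rose in KO (0.277%) and 1 fell (0.00748%). Among the 37 that rose, 18 belonged to the fibroblast and matrix, mesothelium or complement lists. None of the 37 was on the macrophage list, and none reached 10 TPM in both WT adipose libraries. The highest WT value among them was 3.58 TPM, and their KO values ran from 8.82 to 2493 TPM. KO adipose 2 was above KO adipose 3 in 12 of the 37, and the median ratio of KO adipose 3 to KO adipose 2 was 1.53.

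Of the 16 genes on the mesothelial list 14 passed the filter on low values, and 5 of them rose. A gene near 0 in WT can pass that filter only through its KO libraries, so counts over tested members of this and the next 2 lists are descriptions and support nothing. Nkain4, which encodes a protein interacting with the sodium pump, was listed at 0 in both WT adipose libraries and had 113 and 107 TPM in KO adipose 2 and 3. Upk1b, a uroplakin gene, likewise was at 0 in WT but at 113 and 106 TPM in KO. The KO libraries matched each other closely for these genes, whose fold changes were 6.80 (SE 0.500) and 6.78 (SE 0.501), each with a limma adjusted p of 0.00338. Gpm6a, a membrane glycoprotein gene, had 63.3 and 77.6 TPM in KO versus 0 in both WT libraries (fold change 6.15, limma adjusted p = 0.00391). Msln, which encodes the mesothelial surface protein mesothelin, was at 24.7 and 149.6 TPM in KO adipose 2 and 3 and at 0 in WT (5.96, adjusted p = 0.0297). Upk3b, another uroplakin gene, had 20.5 and 52.9 TPM in KO and 0 in WT (5.09, adjusted p = 0.0135). For Msln and Upk3b the call was lost on leaving out either WT adipose library or any spleen library (adjusted p = 0.0664 to 0.193 over these fits), whereas Nkain4 and Upk1b passed whichever of the 8 libraries was left out. Gpm6a missed the threshold without WT adipose 3 (adjusted p = 0.0527). Krt19 and Wt1, which also define mesothelium, were at 0 in WT but at 16.7 and 1.06 TPM in KO adipose 2 without passing, with 144 and 6.86 TPM in KO adipose 3 (adjusted p = 0.0601 and 0.522).

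In the fibroblast and matrix list 18 of 28 genes were tested, and 7 of them rose. Igfbp6 encodes a binding protein for insulin-like growth factors. Its 4 adipose values were 0.0380 and 0.839 TPM in WT and 269 and 746 TPM in KO (8.34, SE 0.645, limma adjusted p = 0.00338), and it passed whichever library was left out. Igfbp5, of the same family, was at 0 in WT but at 26.7 and 21.7 TPM in KO (4.65, adjusted p = 0.00872). Dcn, the gene of the collagen-binding proteoglycan decorin, reached the highest level of any gene that rose, 404 and 2493 TPM in KO versus 0.101 and 3.58 TPM in WT (8.81, SE 0.949, adjusted p = 0.00934). The fibulin genes Efemp1, Fbln1 and Fbln2, whose products assemble elastic matrix, all rose. Efemp1 had 333 and 128 TPM in KO and 1.25 and 0 TPM in WT (7.12, adjusted p = 0.00534), so here KO adipose 2 was the higher library. Fbln1 had 27.2 and 39.95 TPM in KO (4.58, adjusted p = 0.0156), and Fbln2 had 8.82 and 13.4 TPM (3.56, adjusted p = 0.0310), with every WT value under 1 TPM. Ogn, which encodes another small matrix proteoglycan, had 13.3 and 31.7 TPM in KO and at most 0.0306 TPM in WT (4.4, adjusted p = 0.0249). Fbln1, Fbln2 and Ogn lost their calls on leaving out either WT adipose library or any spleen library (adjusted p = 0.0685 to 0.204 over these fits). Igfbp5 lost it without WT adipose 2, WT adipose 3, WT spleen 3, KO spleen 2 or KO spleen 3 (0.0510 to 0.101). Dcn missed the threshold without WT adipose 2 (0.0580), KO spleen 2 (0.0621) or KO spleen 3 (0.0597), and Efemp1 without WT adipose 3 (0.0547). The defining fibroblast gene Pdgfra was listed at 0 in WT adipose 2, WT adipose 3 and KO adipose 2 and at 0.0339 TPM in KO adipose 3. Collagen genes were low: Col1a1 had 0.855 and 5.39 TPM in KO, and Col3a1, which did not pass (adjusted p = 0.0619), had 7.14 and 21.3 TPM.

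The complement system, a cascade of plasma proteases that tag targets for uptake, was represented by 6 genes that rose among 13 tested of 15 listed. Its central component C3 had 0.0164 and 0.212 TPM in WT and 108 and 310.2 TPM in KO (7.37, SE 0.647, limma adjusted p = 0.00519). The classical pathway proteases C1s1 and C1ra were at 0 in both WT libraries and at 44.3 and 24.6 TPM in KO adipose 2 and 68.8 and 46.0 TPM in KO adipose 3 (5.81 and 5.12, adjusted p = 0.00519 and 0.0191). The alternative pathway protease gene Cfb had 46.7 and 74.1 TPM in KO and at most 0.193 TPM in WT (5.78, adjusted p = 0.00519). Proteases of both activation routes therefore rose together with inhibitors of the cascade. Serping1, the inhibitor of the C1 proteases, was at 0 in WT but at 111 and 213 TPM in KO (7.28, SE 0.567, adjusted p = 0.00338), and it passed whichever library was left out. Clu, which encodes clusterin, an inhibitor of the terminal complex, had 113 and 65.5 TPM in KO and 0 and 1.81 TPM in WT (5.70, adjusted p = 0.0191). The membrane regulators Cd55 and Cr1l, named after their values were seen, did not pass: Cr1l had 49.0 and 58.8 TPM in WT and 55.6 and 67.8 TPM in KO (0.19, adjusted p = 0.898). C3, C1s1 and Cfb missed the threshold without WT adipose 3 (0.0527, 0.0547 and 0.0547), and Cfb also without WT adipose 2 (0.0576). C1ra passed only without KO adipose 2 or WT spleen 2 among the 8 such fits, and Clu only without KO adipose 2, with adjusted p up to 0.159 and 0.114 in the others.

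The other genes that rose were of mixed function. Rarres2, which encodes the attractant chemerin, had 0 and 3.51 TPM in WT and 262 and 401 TPM in KO (7.26, limma adjusted p = 0.00823). The serine protease gene Prss23 had 0.0262 and 0 TPM in WT and 114 and 53.0 TPM in KO (6.28, adjusted p = 0.00519). Gpx8, a peroxidase gene of the endoplasmic reticulum, was at 0 in WT but at 18.2 and 108 TPM in KO (5.52, adjusted p = 0.0368), and the small heat shock protein gene Cryab had 0.392 and 0.0656 TPM in WT and 18.1 and 62.7 TPM in KO (4.84, adjusted p = 0.0310). Gpx8 and Cryab passed in 2 of the 8 fits that left out a library, those without KO adipose 2 or KO adipose 3, with adjusted p of 0.118 to 0.204 in the rest. Rarres2 missed the threshold without KO spleen 2 (0.0544) or KO spleen 3 (0.0550), and Prss23 without WT adipose 3 (0.0547). Outside the naming rule, and picked after its values were seen, the cytokine gene Il18 rose: 0.474 and 0 TPM in WT, 33.3 and 63.9 TPM in KO (5.28, SE 0.494, adjusted p = 0.00534). In the 4 spleen libraries it had 16.6 to 27.2 TPM, whereas 33 of the 37 genes that rose were under 1 TPM in all 4 spleen libraries.

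**Figure D1:**
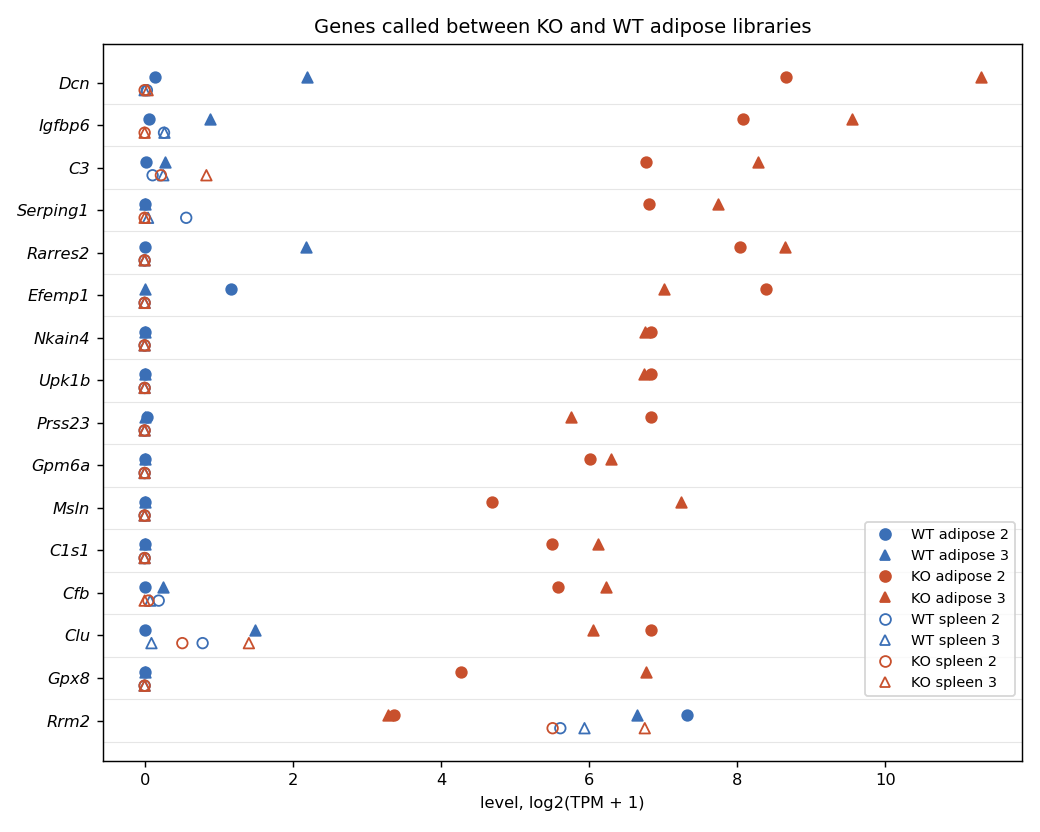
Levels, on a log2(TPM + 1) axis, of the 15 genes of largest fold that rose and of Rrm2, which fell. Filled symbols are adipose and open symbols spleen libraries, blue WT and red KO, with circles for library 2 and triangles for library 3. The WT adipose and all spleen points of the 15 genes sit near 0, the KO adipose points far to the right, and Rrm2 shows the reverse in adipose tissue.

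The difference in adipose tissue differed from that in spleen for 4 genes (0.0299% of those tested), all among the genes that rose: Igfbp6 (adipose minus splenic fold change 8.61), Serping1 (7.58), Nkain4 (6.80) and Upk1b (6.78), each with a limma adjusted p of 0.0367. All 4 were under 1 TPM in every spleen library, so this test largely repeats the adipose comparison and is no separate support for it. With the replicate number as a block 0 genes passed this test, and leaving out 1 library gave 0 to 177. In the adipose libraries alone, without the spleen libraries to estimate the spread, limma called 0 genes between genotypes, with 742 at an unadjusted p under 0.05, and the 4 genes above each had an adjusted p of 0.537. No exact permutation test of 2 against 2 libraries can go below p = 0.333.

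The sequence immediately upstream is shown for Igfbp6, C3 and Efemp1 and for Rrm2, the gene that fell. The first 3 are the genes of largest fold that had an entry in RefSeq on GRCm38.p6. Whether these genes share any control was not tested. Each run is the 250 bases before the annotated start, 5′ to 3′ on the gene's strand. Capitals mark E-box motifs (CANNTG, the same on both strands), the DNA site of E proteins, in the first 3, and the CCAAT motif, which is common in promoters of cell cycle genes, in Rrm2.
Igfbp6, chr15:102143936-102144185, plus strand: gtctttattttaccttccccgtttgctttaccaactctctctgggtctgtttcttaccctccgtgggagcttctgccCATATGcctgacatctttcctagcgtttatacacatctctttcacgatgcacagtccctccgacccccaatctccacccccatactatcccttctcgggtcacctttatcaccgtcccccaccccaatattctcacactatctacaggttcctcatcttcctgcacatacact
C3, chr17:57228137-57228386, minus strand: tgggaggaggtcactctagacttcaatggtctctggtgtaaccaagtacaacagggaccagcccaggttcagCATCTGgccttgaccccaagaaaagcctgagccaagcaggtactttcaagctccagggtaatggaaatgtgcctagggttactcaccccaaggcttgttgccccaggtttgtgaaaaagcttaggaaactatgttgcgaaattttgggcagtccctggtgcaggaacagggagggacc
Efemp1, chr11:28852955-28853204, plus strand: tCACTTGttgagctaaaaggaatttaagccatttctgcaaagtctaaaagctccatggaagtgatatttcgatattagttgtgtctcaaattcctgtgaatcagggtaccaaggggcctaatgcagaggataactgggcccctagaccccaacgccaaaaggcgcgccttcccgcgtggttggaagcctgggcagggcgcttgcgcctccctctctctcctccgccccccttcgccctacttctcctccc
Rrm2, chr12:24708004-24708253, plus strand: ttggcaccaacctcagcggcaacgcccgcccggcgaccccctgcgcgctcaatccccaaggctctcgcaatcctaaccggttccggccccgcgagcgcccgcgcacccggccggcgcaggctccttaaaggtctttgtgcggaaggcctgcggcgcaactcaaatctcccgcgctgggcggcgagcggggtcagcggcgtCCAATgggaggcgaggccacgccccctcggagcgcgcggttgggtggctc

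Each of the 3 windows of genes that rose held 1 E-box, and at least 1 occurred in 66% of the first windows of all 27025 genes in the RefSeq set. Among genes that rose, 23 of 37 had an entry and 15 of the 23 (65.2%) held an E-box. The Rrm2 window held 1 CCAAT and no E-box, and the Igfbp6 window held 2 CCAAT matches, left in lower case. CCAAT or its reverse complement ATTGG occurred in 34.5% of all windows, in 15 of 24 windows (62.5%) of the S phase list described below and in 5 of 23 (21.7%) of the genes that rose. These are matches of letters only.

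Transcripts of other cell types differed between the KO libraries in kind. The fibroblast and matrix list summed to 33.7 and 83.3 TPM in WT adipose 2 and 3 and to 1223 and 5248 TPM in KO adipose 2 and 3. The mesothelial list summed to 9.18 and 9.24 TPM in WT and to 426 and 800 TPM in KO. Both KO libraries thus exceeded both WT libraries in these lists. The macrophage list instead summed to 12.2, 33.1 and 44.5 TPM in WT adipose 2, WT adipose 3 and KO adipose 2 and to 27207 TPM in KO adipose 3. Its defining gene Lyz2, the lysozyme of phagocytes, had 0.918 TPM in KO adipose 2 but 4982 TPM in KO adipose 3. C1qa was at 0 in both WT libraries and at 1.16 TPM in KO adipose 2. Also defining, Csf1r had 0 and 0.0477 TPM in WT and 3.25 and 164 TPM in KO. Cd68 had 1.45 and 0.680 TPM in WT and 1.31 and 432 TPM in KO. None of the 14 tested macrophage genes passed, with a median fold change of 0.00 in experiment 2 and 7.41 in experiment 3. For 5 of the 14, both KO libraries lay above both WT libraries, against 7.66% of all genes tested. Genes near 0 in WT passed the filter through other libraries, so this count is a description. The adipocyte list summed to 52.1, 2241, 80.9 and 14894 TPM in the same library order. The endothelial list summed to 39.4, 183.6, 16.4 and 1317 TPM. Both lists were higher in both libraries of experiment 3 than in those of experiment 2. Their defining genes Plin1 and Cdh5 were at 0 in both adipose libraries of experiment 2. Adipoq, also defining for adipocytes, had 0, 9.46, 0.0290 and 112 TPM in the same order. Pecam1, also defining for endothelium, was present in every library, with 38.2, 34.6, 6.96 and 189 TPM. Erythroid transcripts, mostly hemoglobin, summed to 38.4 and 3798 TPM in WT and to 34707 and 65679 TPM in KO, with 0 of 8 genes past the test. Of the 2 hemoglobin genes at 10 TPM or more in both WT libraries, Hba-a2 had 17.0 and 1957 TPM in WT and 17741 and 32953 TPM in KO (7.01, SE 2.35, limma adjusted p = 0.538). In bulk samples, more cells of a type and more RNA per cell cannot be told apart. The part of these cells in the results was not tested.

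**Figure D2:**
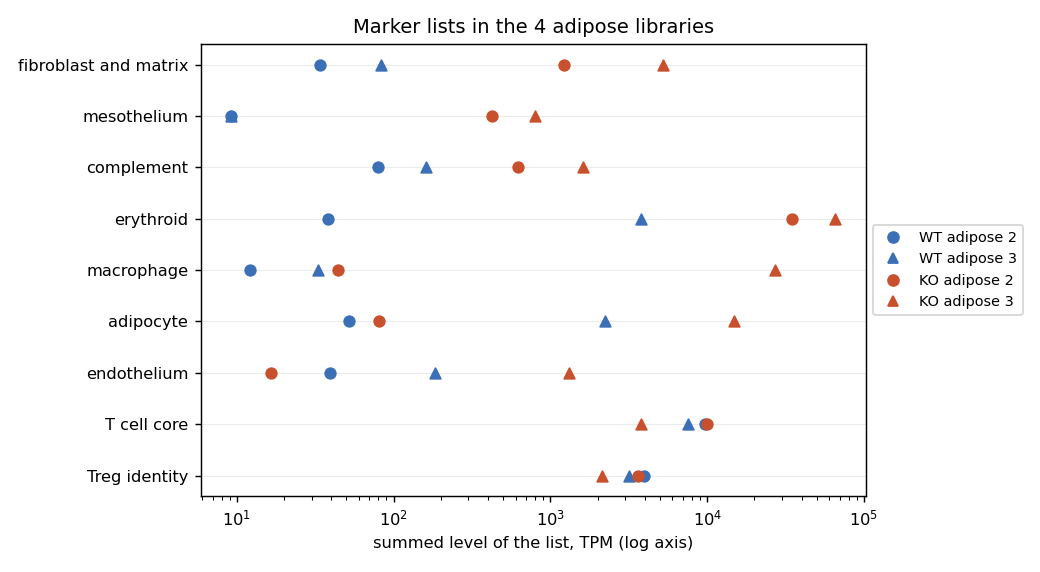
Summed level, on a logarithmic TPM axis, of 9 marker lists in the 4 adipose libraries (blue WT, red KO, circles library 2, triangles library 3). The KO points of the fibroblast, mesothelial, complement and erythroid lists lie to the right of both WT points, the macrophage list is high in KO adipose 3 alone at 27207 TPM, and the T cell core list is lowest there at 3802 TPM.

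Among the 6496 genes at 10 TPM or more in both WT libraries, 1 gene passed the test, Rrm2. This level does not limit the set to genes of T cells. It includes Hba-a2, and Cd74 of the dendritic cell list, with 161 and 54.4 TPM in WT and 25.7 and 3155 TPM in KO. The fold change was within 1 log2 unit for 5663 of the 6496 (87.2%), and its median was -0.36, against -0.27 over all genes tested. Negative values made up 78.9% of the set, against 67.7% of all genes, and 72.9% of the 7325 genes at a mean of 10 TPM or more over the 4 adipose libraries. Both KO libraries lay below both WT libraries for 2510 genes (38.6%, against 27.5% of all genes) and above them for 264 (4.06%, against 7.66%). At an unadjusted p under 0.05, 314 were lower and 36 higher, where the shares over all genes were 3.87% and 3.10%. The excess of lower values moved with the scaling: the share that was lower in KO was 62.8% after quantile normalization and 66.7% with genes of other cells, hemoglobin and mitochondrial genes removed and the rest rescaled, and it turned to 41.5% when libraries were scaled to the T cell core list, where the median of all tested genes moved from -0.27 to 0.15.

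The experiments often differed in direction. Of the 6496 genes, 3568 (54.9%) were lower in KO in both experiments and 533 (8.21%) higher in both, while 1487 were higher in experiment 2 and lower in experiment 3 and 908 the reverse. Across the set the correlation of the experiments' differences was r = 0.0993, a description over genes that come from the same 4 libraries. These genes together made up 967288 and 956773 TPM in WT, 960463 TPM in KO adipose 2 but 816760 TPM in KO adipose 3, the library with 27207 TPM of macrophage markers. The reverse pattern of the stromal genes, 10 TPM or more in both WT and under 1 TPM in both KO libraries, was shown by 1 gene, the interferon-inducible GTPase gene Gbp10, with 14 and 10.5 TPM in WT and 0.103 and 0.530 TPM in KO (-3.34, SE 0.522, limma adjusted p = 0.0601). In the other direction, 37 genes had 10 TPM or more in both KO and under 1 TPM in both WT libraries. Of these, 28 are among those that rose, where 0.277% of all genes tested rose. The test used the same values that picked them, so this count is a description and supports nothing.

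Rrm2, the regulatory subunit of ribonucleotide reductase, which makes the deoxynucleotides for DNA synthesis, fell in both experiments. It had 158 and 98.9 TPM in WT adipose 2 and 3 and 9.30 and 8.76 TPM in KO adipose 2 and 3, so the KO libraries were alike and far below WT. The fold change was -3.65 (SE 0.469, limma adjusted p = 0.0228), -3.95 in experiment 2 and -3.36 in experiment 3. In spleen it had 47.9 and 60.3 TPM in WT and 44.5 and 107 TPM in KO, and the difference between tissues was not called (limma adjusted p = 0.155). The call was lost on leaving out either WT adipose library (0.164 for the one numbered 2 and 0.118 for 3), KO adipose 3 (0.108) or either WT spleen library (0.0866 and 0.0863), and when libraries were scaled to the T cell core list (0.151).

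Other genes of DNA synthesis were lower in KO without passing. All 28 tested members of the S phase and DNA replication list had negative fold changes, a median of -1.09, and 14 of them (against 27.5% of all genes tested and 38.6% of those at 10 TPM or more in both WT libraries) had both KO libraries below both WT libraries. Tyms, the thymidylate synthase gene, had 36.4 and 26.8 TPM in WT and 8.04 and 9.91 TPM in KO (-1.70, SE 0.372, limma adjusted p = 0.179). Rfc4, a subunit of the clamp loader, had 67.9 and 42.0 TPM in WT and 20.0 and 26.2 TPM in KO (-1.19, adjusted p = 0.464). The list's median was -2.01 in experiment 2 and -0.48 in experiment 3. Its sum was 1855 and 925 TPM in WT and 609 and 658 TPM in KO, and with libraries scaled to the T cell core list 25 of 28 members were negative.

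Genes of mitosis were lowest in KO adipose 2. All 30 tested members had negative fold changes and none passed. Their median was -3.21 in experiment 2 and -0.07 in experiment 3. Ccna2, cyclin A2, had 56.8 and 30.4 TPM in WT, 0.118 TPM in KO adipose 2 but 21.8 TPM in KO adipose 3 (-3.08, limma adjusted p = 0.626). The spindle kinesin gene Kif11 had 28.5 and 10.5 TPM in WT and 0 and 5.48 TPM in KO (-2.85, adjusted p = 0.579), and Nusap1, a spindle protein gene, had 33.8 and 22.2 TPM in WT and 1.99 and 10.3 TPM in KO (-2.28, adjusted p = 0.580). In each of these genes KO adipose 3 was nearer to WT than KO adipose 2. Stmn1, which destabilises microtubules, had 397 and 366 TPM in WT and 31.3 and 149 TPM in KO and, among the analyses run, passed only without KO adipose 3 (adjusted p = 0.0400, against 0.335 with all libraries). Of this list, 7 genes were listed at 0 in KO adipose 2, the library with the fewest genes above 0. Cdca5, the cohesin regulator sororin, was at 22.0 and 17.7 TPM in WT but at 0 and 3.32 TPM in KO (-3.32, adjusted p = 0.174).

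**Figure D3:**
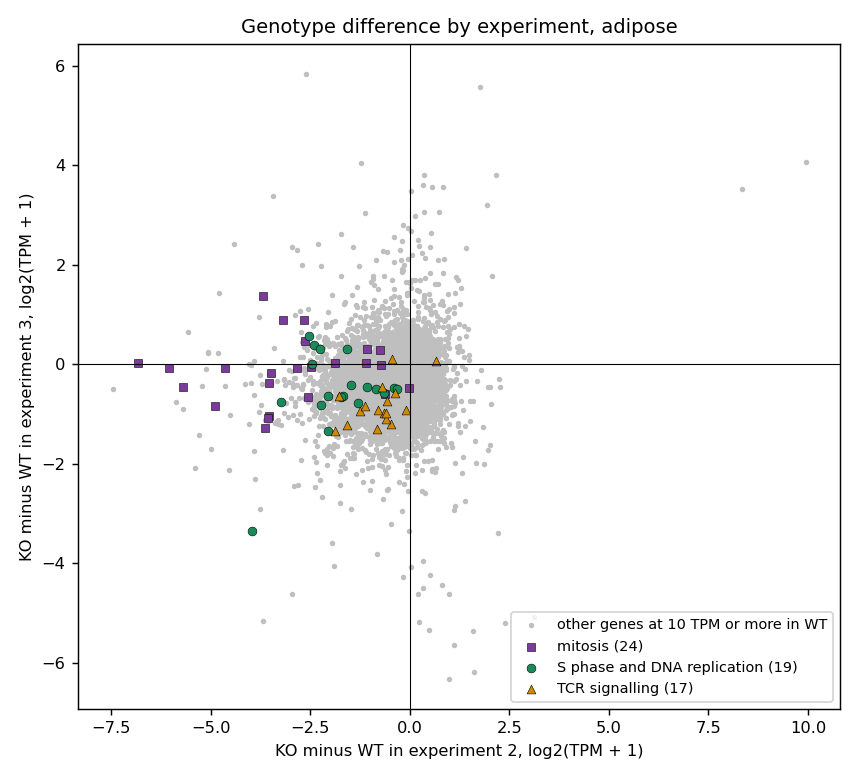
Each point is 1 of the 6496 genes at 10 TPM or more in both WT adipose libraries, placed by KO minus WT on the log2(TPM + 1) scale in experiment 2 (horizontal) and experiment 3 (vertical). Mitosis genes (purple squares) spread far to the left near a vertical value of 0, S phase genes (green circles) lie left and mostly just below 0, T cell receptor signalling genes (orange triangles) lie below 0 on both axes with few exceptions, and Rrm2 is the lone green circle at -3.95 and -3.36.

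Id3 had the smallest p of the genes in this set that were higher in KO. The paralogue of Id2 had 25.1 and 22.3 TPM in WT adipose 2 and 3 and 116 and 323 TPM in KO adipose 2 and 3, without overlap (2.98, SE 0.516, limma adjusted p = 0.0835). It passed without KO adipose 2 (fold change 3.72, adjusted p = 0.0142), where the value rests on KO adipose 3, and after quantile normalization (adjusted p = 0.0499). In spleen Id3 had 322 and 276 TPM in WT and 478 and 245 TPM in KO. The E protein genes did not pass. Tcf12 had 12.6 and 10.5 TPM in WT and 3.36 and 9.51 TPM in KO (-0.88, adjusted p = 0.758). Tcf4 had 0.455 and 3.06 TPM in WT and 1.11 and 23.5 TPM in KO, with overlap (adjusted p = 0.776). Of 6 E and Id protein genes tested, 3 had positive and 3 negative fold changes and 0 passed.

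The other 11 genes of smallest p that were higher in KO, none of which passed, included Hba-a2, given above. Cd200, which encodes a surface ligand that restrains myeloid cells, had 13.7 and 18.3 TPM in WT and 55.5 and 178 TPM in KO (2.58, SE 0.535, limma adjusted p = 0.159). Ier3, an immediate early gene, had 27.1 and 25.2 TPM in WT and 73.4 and 131 TPM in KO (1.87, adjusted p = 0.295). Tcn2, a vitamin B12 carrier gene, had 22.3 and 47.9 TPM in WT and 96.6 and 165 TPM in KO (1.92, adjusted p = 0.341). In each of the 3, KO adipose 3 was the highest library. The lysosomal genes Ifi30 (1.41, adjusted p = 0.403) and Laptm4a (1.45, adjusted p = 0.403) had smaller differences, from 46.9 and 30.5 TPM in WT to 77.7 and 134 TPM in KO for Ifi30. Rbbp9 and Ephx1, the epoxide hydrolase gene, were alike in both KO libraries: Rbbp9 had 39.6 and 38.3 TPM in KO versus 17.5 and 13.5 TPM in WT (1.29, adjusted p = 0.464), and Ephx1 had 77.2 and 74.5 TPM against 43.1 and 31.8 TPM (1.01, adjusted p = 0.467). Tsen34, Crip2 and Arf2 had fold changes of 1.33, 2.19 and 1.46 (adjusted p = 0.490, 0.526 and 0.537).

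The genes of smallest p that were lower in KO included cytokine receptors and a survival factor. Beside Rrm2, Gbp10, Tyms and Cdca5, Serpina3g, a serine protease inhibitor gene of activated lymphocytes, had 274 and 209 TPM in WT and 81.0 and 38.2 TPM in KO (-2.09, SE 0.428, limma adjusted p = 0.155). Tmsb15b1, a thymosin gene, had the smallest SE of this group, with 45.2 and 48.7 TPM in WT and 16.2 and 16.1 TPM in KO (-1.48, SE 0.309, adjusted p = 0.160). Il12rb1, a receptor subunit for interleukin-12, had 30.3 and 41.6 TPM in WT and 3.18 and 6.78 TPM in KO (-2.68, adjusted p = 0.184). Lack of overlap was a condition for naming the genes of this group, so it holds for all of them and supports nothing. Il17ra, a receptor for interleukin-17, had 74.4 and 49.3 TPM in WT and 13.5 and 16.2 TPM in KO (-1.96, adjusted p = 0.188). Bcl2, which protects lymphocytes from death, had 87.6 and 89.95 TPM in WT and 35.6 and 29.5 TPM in KO (-1.43, SE 0.328, adjusted p = 0.220). Odc1, the first enzyme of polyamine synthesis, had 87.6 and 74.9 TPM in WT and 27.7 and 16.9 TPM in KO (-1.86, adjusted p = 0.174). The proprotein convertase gene Pcsk4 (22.6 and 17.9 TPM in WT, 0.596 and 2.80 TPM in KO) and the adhesion molecule gene Amica1 (40.7 and 11.4 TPM in WT, 0 and 1.92 TPM in KO) completed the group, with adjusted p of 0.168 and 0.169.

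**Figure D4:**
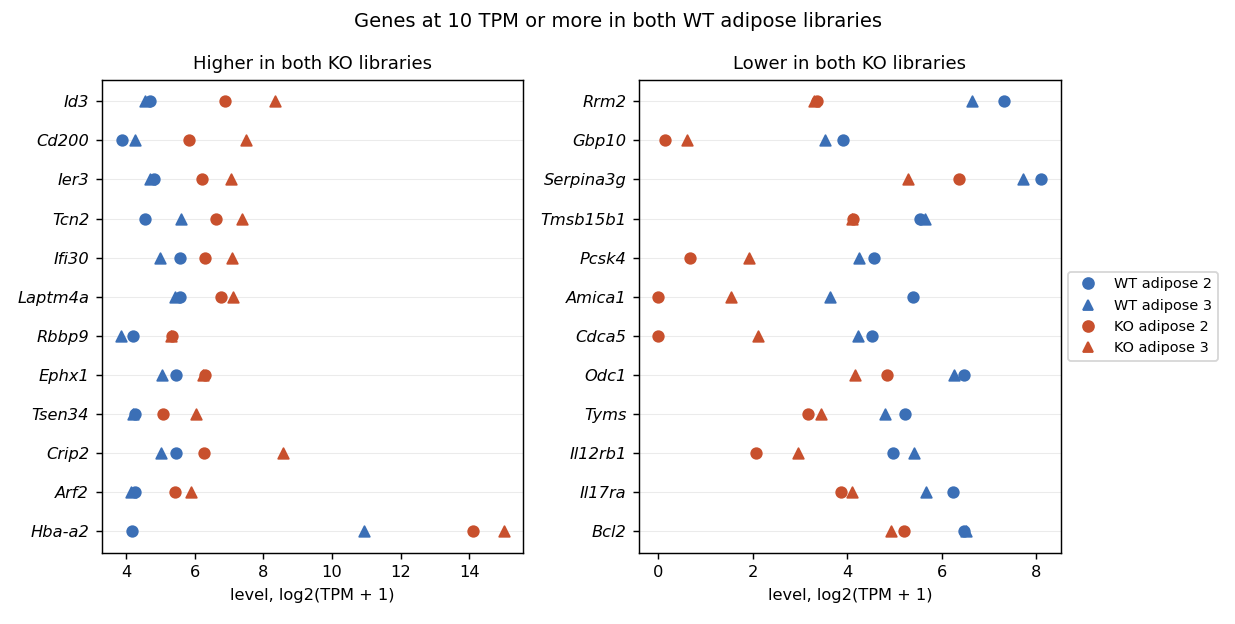
Levels, on log2(TPM + 1) axes, of the 12 genes of smallest p in each direction among those at 10 TPM or more in both WT adipose libraries (blue WT, red KO, circles library 2, triangles library 3). Only genes without overlap were chosen. Red points therefore lie right of blue ones for genes higher in KO and left for genes lower in KO. Only Rrm2 passed.

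Genes of T cell receptor signalling were lower in KO in most cases, with none past the test. Of 18 tested, 17 had negative fold changes and 16 were lower in both experiments, and the median was -0.84. Of all genes tested, 67.7% were negative and 43.1% lower in both experiments. Of the 18, 17 were at 10 TPM or more in both WT libraries. Over that set these shares were 78.9% and 54.9%, with a median of -0.36. Rasgrp1, the Ras activator downstream of the receptor, had 112 and 89.5 TPM in WT and 37.1 and 38.0 TPM in KO (-1.39, SE 0.381, limma adjusted p = 0.358). Malt1, the protease that carries the signal to NF-kB, had 35.5 and 45.4 TPM in WT and 8.88 and 17.5 TPM in KO (-1.61, adjusted p = 0.510). Nfatc1 and Plcg1, a transcription factor and a phospholipase of the calcium branch, had fold changes of -1.21 and -1.10 (adjusted p = 0.618 and 0.650). The T cell core list, whose sums were 9739 and 7564 TPM in WT and 9973 and 3802 TPM in KO, had 13 of 14 negative members and a median of -0.71. Without KO adipose 3 that became 7 of 14 and -0.10, and without KO adipose 2 the median was -1.24. Zap70, the kinase bound to the receptor, had 99.4 and 121 TPM in WT and 33.2 and 65.1 TPM in KO (-1.22, limma adjusted p = 0.740). With libraries scaled to the T cell core list, 16 of 18 signalling genes were negative, with a median of -0.37. Without KO adipose 3 the count was 13 of 18.

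NF-kB and TNF receptor genes had negative fold changes in 16 of 17 cases (median -0.66), and 0 passed. The negative share was 67.7% over all genes tested and 78.9% over those at 10 TPM or more in both WT libraries. Nfkbid, an atypical inhibitor of NF-kB, had 194 and 341 TPM in WT and 61.5 and 136 TPM in KO (-1.48, limma adjusted p = 0.548). Tnfaip3, the feedback inhibitor A20, had 188 and 242 TPM in WT and 74.5 and 109 TPM in KO (-1.23, adjusted p = 0.651). Both inhibitors were lower in each KO library than in either WT library. Under scaling to the T cell core list 10 of 17 members were negative.

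G1 regulators had 17 of 18 negative fold changes (median -0.92), and 0 passed. Negative values made up 67.7% of all genes tested and 78.9% of those at 10 TPM or more in both WT libraries. In 12 of the 18 both KO libraries lay below both WT libraries, against 27.5% and 38.6% of these sets. Ccnd3, the main D-type cyclin of lymphocytes, had 241 and 189.997 TPM in WT and 108 and 105 TPM in KO (-0.99, SE 0.409, limma adjusted p = 0.672). Rbl2, a pocket protein that holds cells out of the cycle, had 83.5 and 48.4 TPM in WT and 28.0 and 19.0 TPM in KO (-1.42, adjusted p = 0.646). Cdkn1a, the inhibitor p21, had 42.3 and 88.4 TPM in WT and 8.83 and 40.6 TPM in KO (-1.62, adjusted p = 0.717). These 3 genes, a driver and a pair of brakes of the cycle, each had both KO values below both WT values. Under scaling to the T cell core list 13 of 18 were negative.

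No gene of cell survival or cell death passed the test. Of 12 pro-survival genes 10 were negative (median -0.36), and of 13 pro-apoptotic genes 10 were negative (median -0.59). All genes tested had 67.7% negative and a median of -0.27. Those at 10 TPM or more in both WT libraries had 78.9% and -0.36. Without KO adipose 3, 7 of the 12 pro-survival genes were negative. Beside Bcl2, the apoptosis inhibitors Birc3 (55.1 and 62.1 TPM in WT, 36 and 25 TPM in KO) and Birc2 (88.8 and 62.1 TPM in WT, 32.8 and 44.2 TPM in KO) were lower in both KO libraries (limma adjusted p = 0.740 and 0.747). On the other side, the BH3-only gene Bbc3 had 12.9 and 14.7 TPM in WT and 3.65 and 5.11 TPM in KO (-1.47, adjusted p = 0.580), and the death receptor gene Fas was higher in both KO libraries, 74.0 and 67.8 TPM against 47.3 and 21.5 TPM (1.12, adjusted p = 0.651). The pro-survival median turned to 0.15 under scaling to the T cell core list.

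The genes that define adipose Tregs showed no difference that passed the test. Of 25 tested genes of the adipose Treg and type 2 list, 18 were negative (median -0.29, close to the -0.27 of all genes) and 0 passed, and under scaling to the T cell core list the median was 0.18. Pparg, the nuclear receptor of these cells, had 25.6 and 154 TPM in WT and 107 and 112 TPM in KO, so both KO values lay between the WT values (0.78, SE 0.988, limma adjusted p = 0.854). Il1rl1 (23.4 and 295 TPM in WT, 60.6 and 80.4 TPM in KO) and Klrg1 (300.5 and 1415 TPM in WT, 535 and 566 TPM in KO) had the same pattern. Gata3 had 156 and 426 TPM in WT and 134 and 156 TPM in KO (-0.83, adjusted p = 0.763). For these 4 genes the WT libraries differed from each other more than the KO libraries did. Leaving out WT adipose 2 or WT adipose 3 gave fold changes of -0.49 and 2.06 for Pparg, -2.06 and 1.54 for Il1rl1 and -1.36 and 0.87 for Klrg1. Prdm1, which encodes the repressor Blimp-1, had 22.6 and 15.2 TPM in WT and 2.62 and 6.19 TPM in KO (-1.94, adjusted p = 0.671). Areg, a repair factor of tissue Tregs, had 54.1 and 251 TPM in WT and 33.9 and 37.8 TPM in KO (-1.68, adjusted p = 0.751).

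Treg identity genes had 12 negative members of 17 (median -0.37) and 0 past the test. This was near the background: 67.7% of all genes tested were negative, with a median of -0.27. Of those at 10 TPM or more in both WT libraries 78.9% were, with a median of -0.36. The Treg identity sums were 3970 and 3153 TPM in WT and 3609 and 2142 TPM in KO. The list's median turned to 0.08 under scaling to the T cell core list. Nt5e, the ectoenzyme CD73 that makes adenosine, had 81.4 and 27.8 TPM in WT and 17.2 and 12.8 TPM in KO (-1.62, SE 0.544, limma adjusted p = 0.538). Nrp1 was higher in both KO libraries, at 47.4 and 132 TPM against 39.8 and 39.96 TPM (0.97, adjusted p = 0.748). In the IL-2 and STAT5 list all 11 members were negative (median -0.69) and 9 were negative under scaling to the T cell core list. Its kinase gene Jak1 had 267 and 213 TPM in WT and 82.5 and 128 TPM in KO (-1.21, adjusted p = 0.593).

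No chemokine receptor, integrin or immediate early gene passed the test. The counts below stand against 67.7% negative over all genes tested and 78.9% over those at 10 TPM or more in both WT libraries. Chemokine receptors were negative in 14 of 16 cases (median -0.31), but in 9 of 16 without KO adipose 3 and 10 of 16 after quantile normalization. Under scaling to the T cell core list the medians were 0.18 for chemokine receptors, -0.06 for integrins and -0.18 for immediate early genes, against 0.15 for all genes. Ccr6 had 93.8 and 133 TPM in WT and 65.1 and 36.9 TPM in KO (-1.17, limma adjusted p = 0.510), and Cxcr6, the most abundant receptor among those named here, had 1658 and 3398 TPM in WT and 1442 and 1063 TPM in KO (-0.94, adjusted p = 0.751). Integrin and adhesion genes were negative in 12 of 16 (median -0.53): Itgal, a subunit of LFA-1, had 101 and 50.6 TPM in WT and 32.4 and 29.0 TPM in KO (-1.20, adjusted p = 0.526). Immediate early genes were negative in 23 of 26 (median -0.65), with Ier3 as an exception that was higher in KO, and their sums were 12248 and 21847 TPM in WT and 10686 and 10351 TPM in KO.

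Interferon response genes split by experiment. Of 21 tested, 10 were positive and 11 negative, with a median of -0.77 in experiment 2 and 0.32 in experiment 3. The GTPase gene Gbp4 had 149 and 126 TPM in WT and 56.8 and 51.4 TPM in KO (-1.33, limma adjusted p = 0.575), lower in each KO library. Oas2, an antiviral sensor gene, had 0.00950 and 0.943 TPM in WT and 1.13 and 12.7 TPM in KO (1.94, adjusted p = 0.730).

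No glycolysis gene passed the test, and the direction of the ribosomal list turned with the scaling. Glycolysis genes were negative in 16 of 17 cases (median -0.55, with 10 of 17 negative under scaling to the T cell core list). Over all genes tested 67.7% were negative, and 78.9% over those at 10 TPM or more in both WT libraries. Slc2a3, a high-affinity glucose transporter gene, had 42.8 and 42.5 TPM in WT and 8.82 and 11.9 TPM in KO (-1.95, SE 0.534, limma adjusted p = 0.358), while Ldhb was higher in KO, at 137 and 74.6 TPM against 62.8 and 44.2 TPM (0.93, adjusted p = 0.690). Of 82 ribosomal protein genes 80 were negative with a median of -0.46, but under scaling to the T cell core list 33 were negative and the median was 0.02. Rpsa had 2506 and 2516 TPM in WT and 1794 and 1352 TPM in KO (-0.69, adjusted p = 0.751). No ribosomal protein gene passed.

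**Figure D5:**
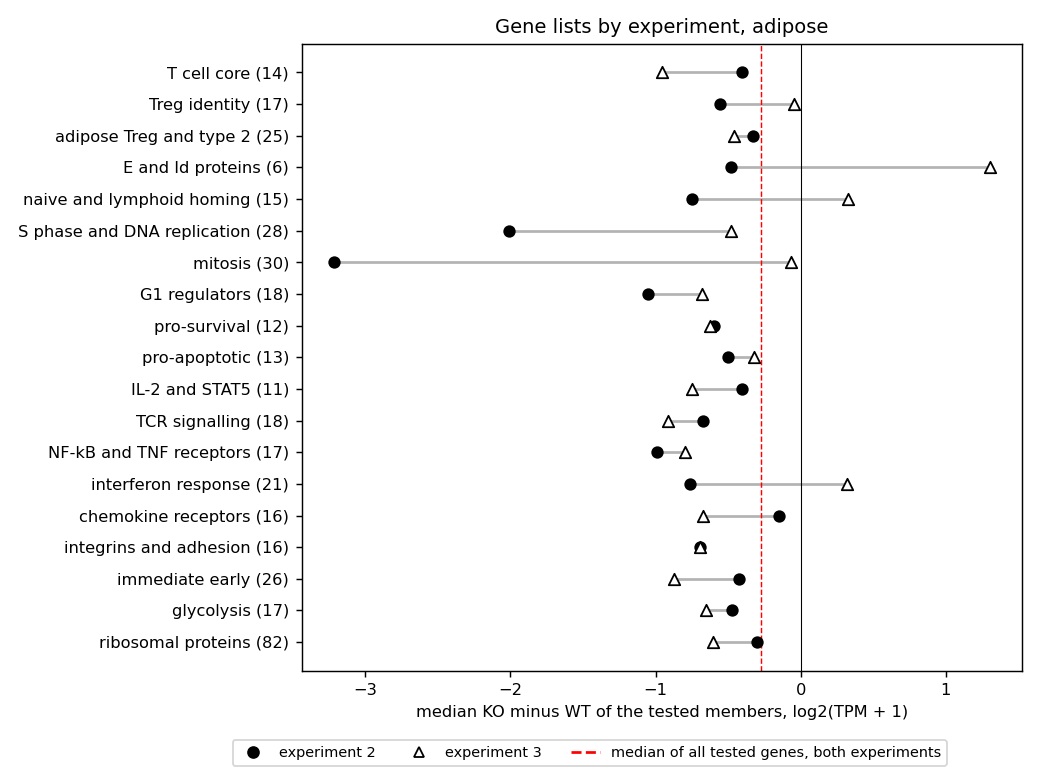
Median KO minus WT on the log2(TPM + 1) scale of the tested members of 19 T cell lists (number of members in brackets) in experiment 2 (filled circles) and experiment 3 (open triangles), with a dashed line at the median of all tested genes, -0.27, and a solid line at 0. Lists of other cell types are not drawn. Of the lists drawn, mitosis is the most spread, from -3.21 to -0.07, and the E and Id protein, naive and interferon lists change side between experiments.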

How the data were processed

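The deposited table holds TPM for 45232 gene names in 8 libraries. The unit was identified from the values, since each column sums to 1000000 and low values share no common step. The submitters' processing notes name the mouse build mm9. Aligner, counter and gene annotation: not given in the sources used here. Per the labels' protocols, at least 500 cells were sorted, a SMARTer kit made the cDNA and a Nextera XT kit the libraries. The depth is unknown, since TPM does not keep it, and neither intervals nor floors are given. A 0 is described as listed at 0. In 27 rows a gene name had become a date, and these were counted but not named.

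All 8 libraries (2 in each of 4 groups) entered 1 fit of log2(TPM + 1) by limma 3.58.1 (R 4.3.3) with a variance trend and 4 residual degrees of freedom. The filter was 1 TPM in at least 2 libraries (13376 genes), and p-values were adjusted by Benjamini-Hochberg over all of them. The fit assumes 1 spread per gene in all groups. The SD of the log2 difference between replicates was 1.49 in KO adipose, 1.07 in WT adipose, 0.70 in WT spleen and 0.84 in KO spleen. For genes near 0 in the other groups, the shared SE can therefore understate the spread of the KO adipose libraries. The fit was tested on simulated data, which also had 1 spread per gene in all groups. Alternatives were other pseudocounts and filters, quantile normalization, other-cell genes removed, no variance trend, library weights, the 4 adipose libraries alone, libraries left out, a replicate block and, added after seeing the data, scaling to the T cell core list. The numbers 2 and 3 are called experiments in the file headers. Same-numbered libraries deviated together (r = 0.128 to 0.382 over 6 pairs of groups), so the numbers were taken as a possible pairing.

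The genes, lists and tests were chosen with earlier results of these data known. Named are Id2 and 8 defining genes, up to 15 genes of largest fold per direction among those that passed without overlap at a mean of 5 TPM or more, the 12 of smallest p per direction without overlap among genes at 10 TPM or more in both WT adipose libraries, the 4 of smallest p in each described list, and list members that passed. Defining markers and genes said to be outside the rule come in addition. Clones, predicted genes and antigen receptor segments are not named. Some genes this rule selects are not reported here. Of the 40 lists, those not described in the text are given in the closing section.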

Additional observations from a re-analysis of the deposited data

Results flagged for a closer look

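The difference between KO and WT in adipose tissue differed from that in spleen, by the interaction term of the model, for 4 genes. Igfbp6 had an adipose minus splenic difference of 8.61, with a splenic fold change of -0.26, and Serping1 had 7.58, with -0.30 in spleen. Nkain4 (6.80) and Upk1b (6.78) were listed at 0 in all 4 spleen libraries. For this pair the term therefore equals the adipose fold change and adds nothing to it. Igfbp6 and Serping1 were under 1 TPM in every spleen library, so for them the term largely repeats the adipose comparison. Each of the 4 genes had a limma adjusted p of 0.0367, with both KO adipose libraries above both WT adipose libraries. With the replicate number as a block, or without a filter on low values, 0 genes passed this test, so none of the 4 did. In the KO adipose libraries, where these genes were high, the fibroblast and matrix list summed to 1223 and 5248 TPM against at most 83.3 TPM in WT. The part of other cells in these 4 results was not tested.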

How the results depend on the processing

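The number of genes called between KO and WT adipose libraries was 38, and 13 with a pseudocount of 0.1, 18 with a filter at 5 TPM, 72 after quantile normalization (70 higher, 2 lower), 10 with other-cell genes removed and rescaled, 0 with the 4 adipose libraries alone (742 at an unadjusted p under 0.05), 162 without both KO libraries of experiment 2 and 19 scaled to the T cell core list, added after seeing the data. With the replicate block it was 43 (41 higher, 2 lower), 37 of them shared with the fit without it, and the block ended no call of a gene named here. Without 1 library it ran from 6 (WT adipose 3) to 343 (KO adipose 2), with 14 without WT adipose 2, 66 without KO adipose 3, and among the spleen libraries 18 and 15 without WT 2 and 3 and 14 without either KO library. The interaction count, 4, was 0 with a pseudocount of 0.1, no filter, a filter at 5 TPM, the replicate block, other-cell genes removed, T cell core scaling or without both KO libraries of experiment 2, 6 with a pseudocount of 5, 10 after quantile normalization or with library weights and 16 without the variance trend, and 0 to 177 without 1 library. Of genes at 10 TPM or more in both WT libraries, 1 was called. This count was 0 with no filter, with other-cell genes removed, with the adipose libraries alone or with T cell core scaling, 2 after quantile normalization or without the variance trend, 11 without both KO libraries of experiment 2 and 0 to 24 without 1 library. The share of them lower in KO, 78.9%, was 62.8% after quantile normalization, 66.7% with other-cell genes removed, 41.5% with T cell core scaling and 65.7% to 80.0% without 1 library. The fold change of Cd3e turned to 0.042 without both KO libraries of experiment 2, and those of Il1rl1 and Klrg1 to 0.21 and 0.23 with T cell core scaling. Without 1 library, Pparg ran from -0.49 to 2.06, Il1rl1 from -2.06 to 1.54, Klrg1 from -1.36 to 0.87, Cd3e from -2.42 to 0.042, Tcf4 from -0.20 to 3.33 and Pim2 from -2.03 to 0.032. The cause of these changes was not tested. No detection limit can be given, since TPM keeps no depth.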

Other observations

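In the lists not described in the report, 1 gene passed between KO and WT adipose libraries. Heat shock and chaperone genes had 10 positive and 4 negative fold changes, with Cryab as the 1 that passed and a median of 0.06, above the -0.27 of all genes. Proteasome genes were split, 10 positive and 7 negative (median 0.05). The 13 mitochondrially encoded genes were all positive (median 0.27), although 5 were negative after quantile normalization, and 0 passed. Genes of the TCA cycle (13 of 19 negative, median -0.11), fatty acid oxidation (11 of 16, -0.28), sterol and lipid synthesis (14 of 18, -0.29) and suppression and checkpoint (8 of 12, -0.23) had no gene that passed, and actin and cell motility genes were negative in 16 of 18 (median -0.36). These 5 medians were 0.37, 0.20, 0.16, 0.14 and 0.11 under scaling to the T cell core list. Th1 and Th17 genes were negative in 10 of 12 cases (median -0.91) and summed to 1759 and 643 TPM in WT and 1408 and 226 TPM in KO.

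Follicular helper genes summed to 175 and 127 TPM in WT adipose libraries and to 409 and 261 TPM in KO adipose libraries, with 6 positive and 4 negative members (median 0.04) and 0 past the test. Single genes made up much of the KO sums: Pdcd1, which encodes the receptor PD-1, had 214 TPM in KO adipose 2 but 24.99 TPM in KO adipose 3, and Cd200 had 55.5 and 178 TPM. Naive and lymphoid homing genes were negative in 9 of 15 (median -0.25, and 0.01 after quantile normalization). Its Tcf7, a factor of naive and memory T cells, had 222 and 173 TPM in WT and 132 and 81.6 TPM in KO (fold change -0.91, limma adjusted p = 0.604). Markers of dendritic cells summed to 274, 83.0, 91.9 and 6496 TPM in WT adipose 2, WT adipose 3, KO adipose 2 and KO adipose 3, those of B cells to 848, 701 and 1339, 564 TPM, those of CD8 and NK cells to 75.1, 18, 113 and 11.1 TPM, and those of mast cells to 2.02, 147, 0.0206 and 48.9 TPM. None of these 4 lists had a gene that passed. In KO adipose 3 most of the dendritic cell sum came from Cd74 (3155 TPM), H2-Ab1 (1564 TPM), H2-Eb1 (829 TPM) and H2-Aa (768 TPM). The macrophage list summed to 27207 TPM in that library. Of the other dendritic cell genes, Itgax was listed at 0 in every adipose library. Flt3 and Xcr1 were lower in KO adipose 3 than in WT adipose 3, and Cd209a, Zbtb46 and Ciita were higher. Which cells carried these transcripts was not tested.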
